A study of Rattus norvegicus with 9 samples.

Results

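Potassium channel genes were followed in the lumbar spinal cord of rats with and without nerve injury. The rule took every locus whose gene name begins with Kcn, left out Kcnj10, and kept those whose mean over the 9 samples was 1 TPM or more. TPM is transcript abundance scaled by transcript length and to an equal total in each sample. Of 34890 loci in the expression table, 92 are named Kcn, and 58 of them met the rule, in 17 subfamilies. A further 33 had a mean under 1 TPM. Over loci of any name, 15503 reached the same limit and were tested.

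RNA was taken from the ipsilateral side of the L3-L6 cord of wild-type male Sprague Dawley rats, whose age is not given in the sources used here. The JA group was sham-operated and received saline. In the SNI group (spared nerve injury) the tibial and common peroneal nerves were tied and cut, the sural nerve was spared, and the rats received saline. The PLM group had the same injury and received the middle dose of paeoniflorin with liquiritin, plant compounds of peony and liquorice root. Each group has 3 samples labelled as biological replicates, and gastric infusion went on for 21 days after the operation. The labels give paeoniflorin at 20.65 mg/ml for each PLM sample and liquiritin at 3.98, 3.99 and 3.100 mg/ml for PLM replicates 1, 2 and 3. The study's methods name a single middle dose, so whether the replicates received different doses of liquiritin is in doubt.

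Potassium channels let potassium leave a cell, which brings the membrane potential back down after a spike and holds it at rest. Voltage-gated channels (such as Kcna, Kcnc, Kcnd and Kcnh) set spike width and firing rate, calcium-activated channels (Kcnma1, Kcnn) shape the afterhyperpolarization, and leak channels (Kcnk) and inward rectifiers (Kcnj) set the resting potential. In the cord, glial inward rectifiers take up the potassium that firing neurons release, and loss of neuronal potassium current is a known correlate of hyperexcitability after nerve injury.

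Promoter sequence from RefSeq (rat assembly GRCr8) was matched by symbol for 41 of the 58 genes. The table gives 1 start for each gene, and all 41 windows hold the full 250 bases before it. Of these windows, 25 lie partly or wholly inside the gene as annotated. These 250 bases held the GC box GGGCGG on either strand (reverse complement CCGCCC) in 21 of 41 genes (51.2%), against 32.4% of 27457 windows over all genes. TATAAA on either strand (TTTATA) was in 0 of the 41 windows and in 13.1% of all windows, and the palindrome TGACGTCA was in 0 of 41 and in 1.70% of all. Among the 16 windows wholly outside the annotated gene, GGGCGG was in 9, TATAAA in 0 and TGACGTCA in 0. The motifs do not overlap in their letters. These are letter matches and not sites of binding. Sequence is shown for 2 genes described below, Kcng4, which was lower in PLM than in SNI, and Kcnj8, whose PLM samples were all above the SNI samples. Of the Kcng4 window, the stretch outside the annotated gene is shown, 113 bases of chr19:64598026-64598138, minus strand, which end 137 bases before the start. The Kcnj8 stretch holds the 250 bases of chr4:177246549-177246798, minus strand, up to the start. Capitals mark a GC box, of which the Kcng4 stretch has 0 and the Kcnj8 stretch has 1.
Kcng4: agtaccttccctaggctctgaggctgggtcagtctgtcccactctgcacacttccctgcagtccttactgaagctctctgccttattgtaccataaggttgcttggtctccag
Kcnj8: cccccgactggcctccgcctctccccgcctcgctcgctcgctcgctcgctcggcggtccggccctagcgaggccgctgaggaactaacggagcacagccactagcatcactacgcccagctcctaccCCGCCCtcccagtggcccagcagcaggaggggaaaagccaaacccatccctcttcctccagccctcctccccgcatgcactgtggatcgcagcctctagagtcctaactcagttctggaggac

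Because TPM is scaled by length and to 1 total, levels can be set side by side between genes, and a larger share of a few abundant RNAs lowers every other value. RNA from the mitochondrial genome took 25.3% to 32.8% of TPM in JA, 23.7% to 26.1% in SNI and 31.3% to 32.8% in PLM. Each comparison is therefore given as deposited and after median-centring, in which the median over the 15503 loci was set equal in every sample. TPM keeps no read depth, so counting error is unknown. In bulk tissue, fewer cells of a type and less RNA per cell cannot be told apart. Markers of neurons, astrocytes, oligodendrocytes and microglia were present in all samples. Summed Schwann cell markers ranged from 121 to 7566 TPM in JA, 548 to 4357 in SNI and 264 to 3205 in PLM, which differs widely within each group.

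The most abundant of the 58 genes was Kcnab2, a cytoplasmic beta subunit of the Kcna channels, with a mean of 121.7 TPM over the 9 samples. Among the voltage-gated pore subunits, Kcna6 had 47.5 TPM, Kcnc1, a channel of fast-spiking neurons, 42.1 TPM and Kcnh2 35.0 TPM. Lower in the order, the most abundant of the 58 in its subfamily was Kcnip1 with 29.3 TPM, Kcnk9 with 21.6 TPM, Kcnj16 with 20.7 TPM, Kcnmb4 with 7.92 TPM and the sodium-activated Kcnt1 with 7.71 TPM. In all, 12 genes had a mean over 20 TPM and 12 had a mean under 3 TPM. Summed over the 19 voltage-gated pore subunits, the level lay between 264 and 443 TPM in the 9 samples. The 14 auxiliary subunits came to between 213 and 328 TPM. The summed levels were 51.7 to 94.4 TPM for the 9 inward rectifiers and 57.3 to 88.0 TPM for the 7 leak channels. The 5 calcium- or sodium-activated pore subunits had 18.4 to 32.3 TPM and the 4 modifier subunits (Kcng and Kcns, which are silent alone and alter other voltage-gated channels) had 15.8 to 37.6 TPM. The voltage-gated pore subunits and the auxiliary subunits thus held most of the RNA of the 58 genes in every sample. Kcnj10, an inward rectifier left out by the rule, had a mean of 139.3 TPM over the 9 samples, more than any of the 58. The sum for inward rectifiers does not hold it.

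**Figure D1:**
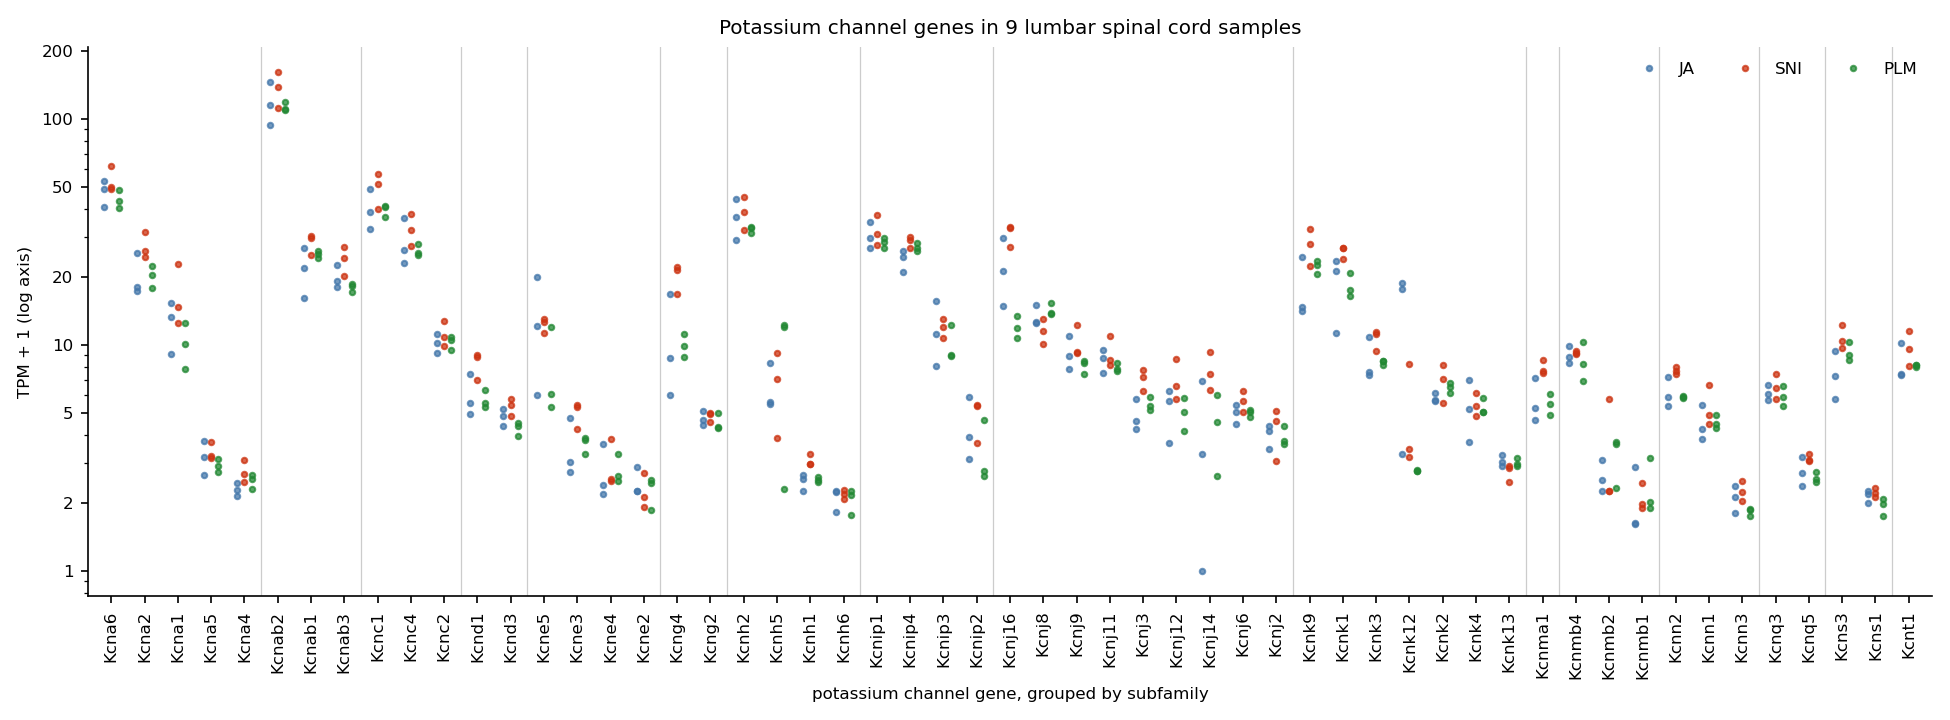
TPM + 1 on a log axis for 55 of the 58 potassium channel genes, grouped by subfamily and ordered by mean level within it, with 1 point per sample in JA, SNI and PLM. Kcnab2 lies highest, Kcnk12 spans 10.1-fold and Kcnh5 8.62-fold between samples, and the lone point at the bottom is Kcnj14, listed at 0 TPM in JA replicate 3.

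Near the limit of 1 TPM, Kcnn3 (a small-conductance calcium-activated channel) was just inside with a mean of 1.07 TPM and Kcnn4, of intermediate conductance, was outside with 0.817 TPM. Of the 58 genes, 52 had at least 1 TPM in every sample. Kcnj14 was the single gene listed at 0 in a sample.

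Samples of 1 group differed from each other, most of all in JA. The SD of log2(TPM + 1) had a median over the 58 genes of 0.281 for JA, 0.193 for SNI and 0.104 for PLM. JA replicate 1 was the highest JA sample for 47 of the 58 genes, and SNI replicate 1 was the highest SNI sample for 44. In PLM, replicates 1, 2 and 3 were highest for 16, 24 and 18 genes. Together the 58 genes summed to 888, 678 and 631 TPM in JA replicates 1, 2 and 3, to 1024, 781 and 887 TPM in SNI, and to 683, 716 and 704 TPM in PLM. JA replicate 1 therefore lay inside the SNI range, while the PLM samples lay close together inside the JA range. The mean level was highest in SNI for 51 of the 58 genes and lowest in PLM for 37. Over all loci as deposited, the fold change was above 0 in SNI against JA for 76.2% and below 0 in PLM against SNI for 84.7%, so both directions were shared by most of the table.

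Some genes varied widely between samples of 1 group. Kcnk12, a leak channel subunit of the THIK type, had 2.29, 17.86 and 16.67 TPM in JA, 7.20, 2.21 and 2.47 TPM in SNI, and 1.81, 1.77 and 1.78 TPM in PLM. Its highest value was 10.1 times its lowest, and the 2 high JA samples stood above all others. As deposited every PLM sample lay below every JA and SNI sample, and after median-centring PLM overlapped with both groups. Kcnh5, an ether-a-go-go channel, had 7.33, 4.60 and 4.50 TPM in JA, 6.10, 8.22 and 2.87 in SNI, and 11.21, 1.3 and 10.96 in PLM, an 8.62-fold span with no order of the groups. Kcne5, an auxiliary subunit, ranged from 4.31 TPM in PLM replicate 2 to 18.94 TPM in JA replicate 2. Kcnj14, an inward rectifier described in motor neurons, had 5.91, 2.31 and 0 TPM in JA, 8.30, 5.35 and 6.47 TPM in SNI, and 3.58, 5.03 and 1.64 TPM in PLM. Its PLM samples lay below its SNI samples as deposited (log2 fold change -0.87, adjusted p = 0.111 by limma) and overlapped with them after median-centring.

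The comparison of PLM with SNI asks how the injured cord differed with and without the compounds. Kcnj16, Kcng4, Kcnma1, Kcnk1 and Kcnn2 fell as deposited, and only Kcnj16 remained below the threshold after median-centring. No potassium channel gene was called higher on either scale. As deposited, lower values in PLM were shared by 84.7% of the loci tested, a share that was 41.8% after median-centring. As deposited, limma with Benjamini-Hochberg adjustment over 15503 loci called 5 of 58 genes lower (8.62%), against 13.2% of all loci, and 0 higher, against 0.206%. After median-centring it called 1 of 58 lower (1.72%), against 0.561% of all loci, and 0 higher, against 0.0839%. At an unadjusted p under 0.05, limma gave 18 genes lower (31%, against 36.2% of all loci) and 1 higher (1.72%, against 1.18%) as deposited. After median-centring it gave 4 lower (6.90%, against 6.75%) and 3 higher (5.17%, against 10.4%). With the study's thresholds, an unadjusted p under 0.05 together with a log2 fold change beyond 1 in size, Kcng4 and Kcnj16 passed as deposited (3.45%, against 1.34% of all loci) and Kcnj16 alone after median-centring (1.72%, against 0.651%), while 0 genes passed upwards on either scale (against 0.142% and 0.432% of all loci).

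Kcnj16 encodes an inward rectifier that joins the Kcnj10 protein in glial channels sensitive to pH. It had 28.71, 20.30 and 13.92 TPM in JA, 31.98, 32.30 and 26.05 TPM in SNI, and 12.50, 10.83 and 9.77 TPM in PLM. Each PLM sample lay below each sample of the other 2 groups. The means were 20.98 ± 7.42, 30.1 ± 3.52 and 11.03 ± 1.38 TPM (SD, n = 3 each). In PLM against SNI the log2 fold change by limma was -1.37 ± 0.12 (SE, adjusted p = 0.0074) as deposited and -1.12 ± 0.13 (adjusted p = 0.0342) after median-centring. As deposited, Kcnj16 was called under every alternative run, with an adjusted p of at most 0.0480 by limma when 1 sample was left out. On median-centred values, leaving out SNI replicate 1, 2 or 3 or PLM replicate 2 or 3 gave adjusted p = 0.147, 0.115, 0.0621, 0.147 and 0.0942 by limma, and the call was lost in these 5 fits. It was also lost by limma with all 9 samples in 1 fit (adjusted p = 0.127) and with the replicate number as a block (adjusted p = 0.107). Over all 15503 loci the 5 fits called 0, 7, 22, 5 and 2, and the last 2 fits called 0 each. The Kcnj16 change in the 5 fits lay between -1.20 and -1.02.

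Kcnj10, the partner of Kcnj16, was left out of the 58 genes by the rule and is given for comparison with Kcnj16. It had means of 148 ± 30.5 TPM in JA, 167 ± 15.2 in SNI and 103 ± 4.60 in PLM. In PLM against SNI its log2 fold change by limma was -0.69 (adjusted p = 0.0111) as deposited and -0.44 (adjusted p = 0.0674) after median-centring. Kcnj16 as a percentage of Kcnj10, which does not depend on the scaling, was 16.5, 13.2 and 12.1 in JA, 17.6, 19.2 and 17.2 in SNI, and 12.2, 10.9 and 9.03 in PLM. The SNI samples were above all others in this ratio, and the JA and PLM samples overlapped. Kcnj2, the neighbour of Kcnj16 on the chromosome, had 2.94 ± 0.405 TPM in PLM and 3.25 ± 1.06 TPM in SNI, and its samples overlapped on both scales.

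The 8 astrocyte markers moved with Kcnj16. All 8 were lower in PLM than in SNI as deposited and 6 of 8 after median-centring, by the same limma test. Summed over the 8, the level ran from 1793 to 3444 TPM in JA, from 2993 to 3313 TPM in SNI and from 1478 to 1781 TPM in PLM. Their part in the lower Kcnj16 was not tested.

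Kcng4 encodes a modifier subunit that is silent alone and alters the gating of other voltage-gated channels. Its level was 15.80, 7.75 and 5.03 TPM in JA, 21.04, 15.83 and 20.38 TPM in SNI, and 8.94, 10.14 and 7.82 TPM in PLM. The SNI samples were above all PLM samples, and the PLM samples lay inside the JA range. The log2 fold change by limma was -1.01 ± 0.14 (adjusted p = 0.0172) as deposited and -0.76 ± 0.14 (adjusted p = 0.0861) after median-centring. As deposited it was called without SNI replicate 2 (adjusted p = 0.0354 by limma) and not without any other single sample (0.0502 to 0.0706). Summed markers of motor neurons were 68.4 to 206 TPM in JA, 165 to 259 in SNI and 143 to 193 in PLM, and 1 of the 4 tested was lower in PLM than in SNI as deposited and 0 after median-centring. Their part in the Kcng4 values was not tested.

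**Figure D2:**
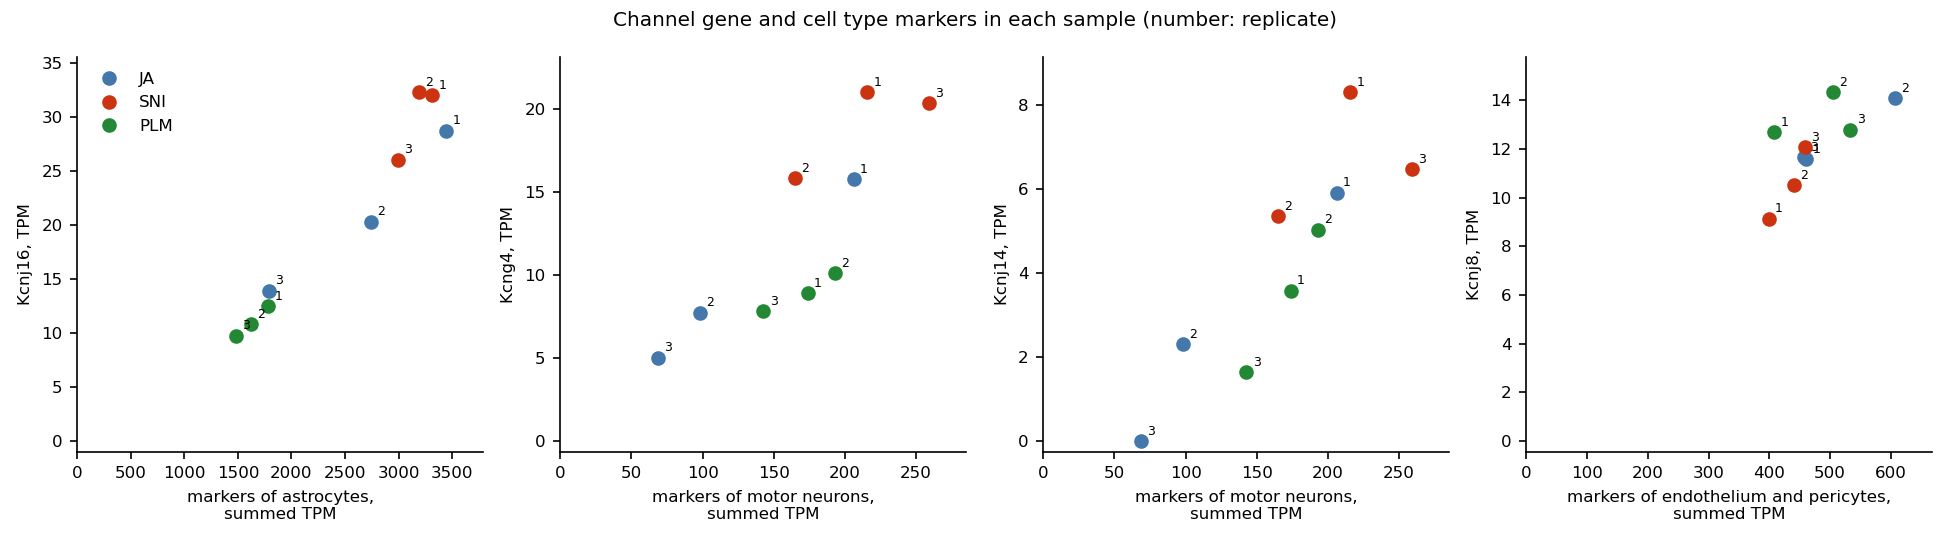
Each panel plots the TPM of 1 potassium channel gene against the summed TPM of a marker list in the 9 samples, with colours for JA, SNI and PLM and numbers for replicates. Low Kcnj16 in PLM goes with astrocyte sums of 1478 to 1781 TPM, all below the lowest JA sum of 1793 TPM, while Kcng4 in PLM is lower than in SNI at overlapping motor neuron sums and Kcnj14 is listed at 0 at the lowest motor neuron sum.

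The pore subunit of the large-conductance calcium-activated channel, Kcnma1, had 6.17, 4.24 and 3.66 TPM in JA, 7.59, 6.67 and 6.54 TPM in SNI, and 3.91, 4.47 and 5.04 TPM in PLM. The SNI samples were above all others. Its log2 fold change in PLM against SNI by limma was -0.54 ± 0.11 (adjusted p = 0.0359) as deposited and -0.29 ± 0.09 (adjusted p = 0.178) after median-centring. Kcnn2, a small-conductance calcium-activated channel, had 6.22, 4.87 and 4.37 TPM in JA, 7.0, 6.45 and 6.64 TPM in SNI, and 4.81, 4.95 and 4.89 TPM in PLM, again with SNI above all others. The change was -0.39 ± 0.07 (adjusted p = 0.0313 by limma) as deposited and -0.14 ± 0.07 (adjusted p = 0.394) after median-centring.

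Kcnk1, a leak channel of neurons and astrocytes, had 22.41, 10.29 and 20.19 TPM in JA, 25.85, 25.93 and 23.10 TPM in SNI, and 15.41, 16.59 and 19.82 TPM in PLM. Its PLM samples were all below SNI and overlapped with JA. The change was -0.51 ± 0.11 (adjusted p = 0.0365 by limma) as deposited and -0.26 ± 0.08 (adjusted p = 0.200) after median-centring. Leaving out 1 sample moved the adjusted p as deposited to between 0.0592 and 0.112 for Kcnma1, 0.0541 and 0.112 for Kcnn2, and 0.0443 and 0.113 for Kcnk1. Only Kcnk1 without PLM replicate 3 was still called.

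**Figure D3:**
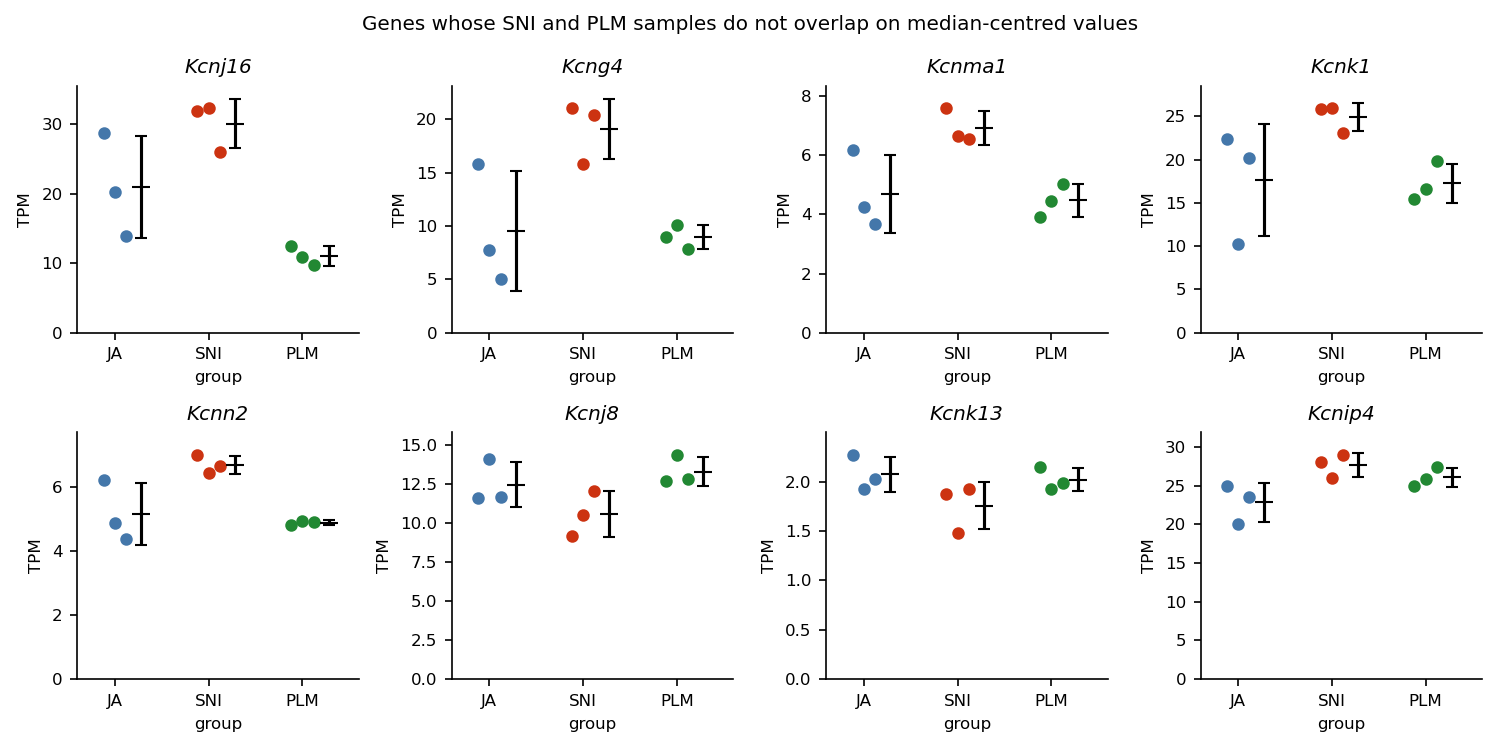
TPM as deposited of the 8 genes whose SNI and PLM samples did not overlap after median-centring, with 1 point per sample and the mean ± SD of 3 samples beside each group. Kcnj16, Kcng4, Kcnma1, Kcnk1 and Kcnn2 are lower in every PLM sample than in every SNI sample, while Kcnj8 is higher, and Kcnk13 and Kcnip4 overlap on this scale.

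A few genes went the other way. Kcnj8 encodes the pore of ATP-sensitive channels in pericytes and vascular smooth muscle, and had 11.57, 14.10 and 11.67 TPM in JA, 9.14, 10.50 and 12.06 TPM in SNI, and 12.68, 14.34 and 12.79 TPM in PLM. On both scales the PLM samples all lay above the SNI samples. The log2 fold change by limma was 0.31 ± 0.11 (adjusted p = 0.106) as deposited and 0.56 ± 0.12 (adjusted p = 0.108) after median-centring, so the difference did not pass the test. Its sulfonylurea receptor Abcc9 had 8.98 ± 2.21 TPM in SNI and 9.20 ± 2.26 TPM in PLM. Summed markers of endothelium and pericytes were 399 to 459 TPM in SNI and 408 to 534 TPM in PLM, and their part in the Kcnj8 values was not tested.

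Kcnk13, a leak channel known from microglia, had 2.27, 1.92 and 2.03 TPM in JA, 1.87, 1.48 and 1.92 TPM in SNI, and 2.15, 1.92 and 1.99 TPM in PLM. Its change was 0.13 ± 0.11 (adjusted p = 0.396 by limma) as deposited and 0.38 ± 0.13 (adjusted p = 0.212) after median-centring, where the groups did not overlap. Without SNI replicate 2 the Kcnk13 change as deposited was 0.06. Summed microglial markers were 290 to 318 TPM in SNI and 280 to 322 TPM in PLM, with 1 of 6 called lower as deposited and 0 after median-centring, and their part in the Kcnk13 values was not tested. Kcnip4, a calcium-binding auxiliary subunit of Kcnd channels, had 24.93, 20.05 and 23.46 TPM in JA, 28.08, 25.93 and 28.95 TPM in SNI, and 24.97, 25.78 and 27.37 TPM in PLM. Its log2 fold change was -0.08 ± 0.07 (adjusted p = 0.392 by limma) as deposited and 0.17 ± 0.06 (adjusted p = 0.268) after median-centring, and its sign thus depended on the scaling. The Kcnip4 value as deposited lay between -0.13, without SNI replicate 2, and -0.05, without SNI replicate 3.

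By position of the samples, 25 of 58 genes (43.1%) had all PLM samples below all SNI samples as deposited, against 41.8% of all loci, and 1 of 58 was above, against 1.59%. After median-centring 5 were below (8.62%, against 9.59% of all loci) and 3 above (5.17%, against 14.6%). A single pair of groups of 3 cannot go below an exact two-sided permutation p of 0.10. The fold change was below 0 for 52 of 58 genes as deposited (89.7%, against 84.7% of all loci) and above 0 for 6 (10.3%, against 15.0%). It was below 0 for 31 of 58 after median-centring (53.4%, against 41.8%). Their median on the log2 scale was -0.27 as deposited, beside -0.21 over all loci, and -0.02 after median-centring, beside 0.04. Without SNI replicate 1 the median after median-centring was 0.05, without SNI replicate 2 it was -0.08, and its sign thus depended on the samples kept.

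Over all loci the median was -0.21 as deposited and 0.04 after median-centring, and 13.2% and 0.561% were called lower. By role, the 9 inward rectifiers had a median log2 fold change of -0.33 as deposited and -0.08 after median-centring, from -1.37 (Kcnj16) to 0.31 (Kcnj8) as deposited. The 7 leak channels had -0.30 and -0.05, and the 5 calcium- or sodium-activated pore subunits had -0.29 and -0.04. Among the 19 voltage-gated pore subunits, of which 0 were called on either scale, the medians were -0.29 and -0.04. The 14 auxiliary subunits stood at -0.17 and 0.08, with 0 called, and the 4 modifier subunits at -0.20 and 0.05, with Kcng4 called as deposited. The subfamily median was below 0 in 16 of 17 subfamilies as deposited and in 12 after median-centring. Kcnmb, the auxiliary subunits of Kcnma1, had a median of 0.03 as deposited and 0.28 after median-centring while Kcnma1 itself had the values given above.

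**Figure D4:**
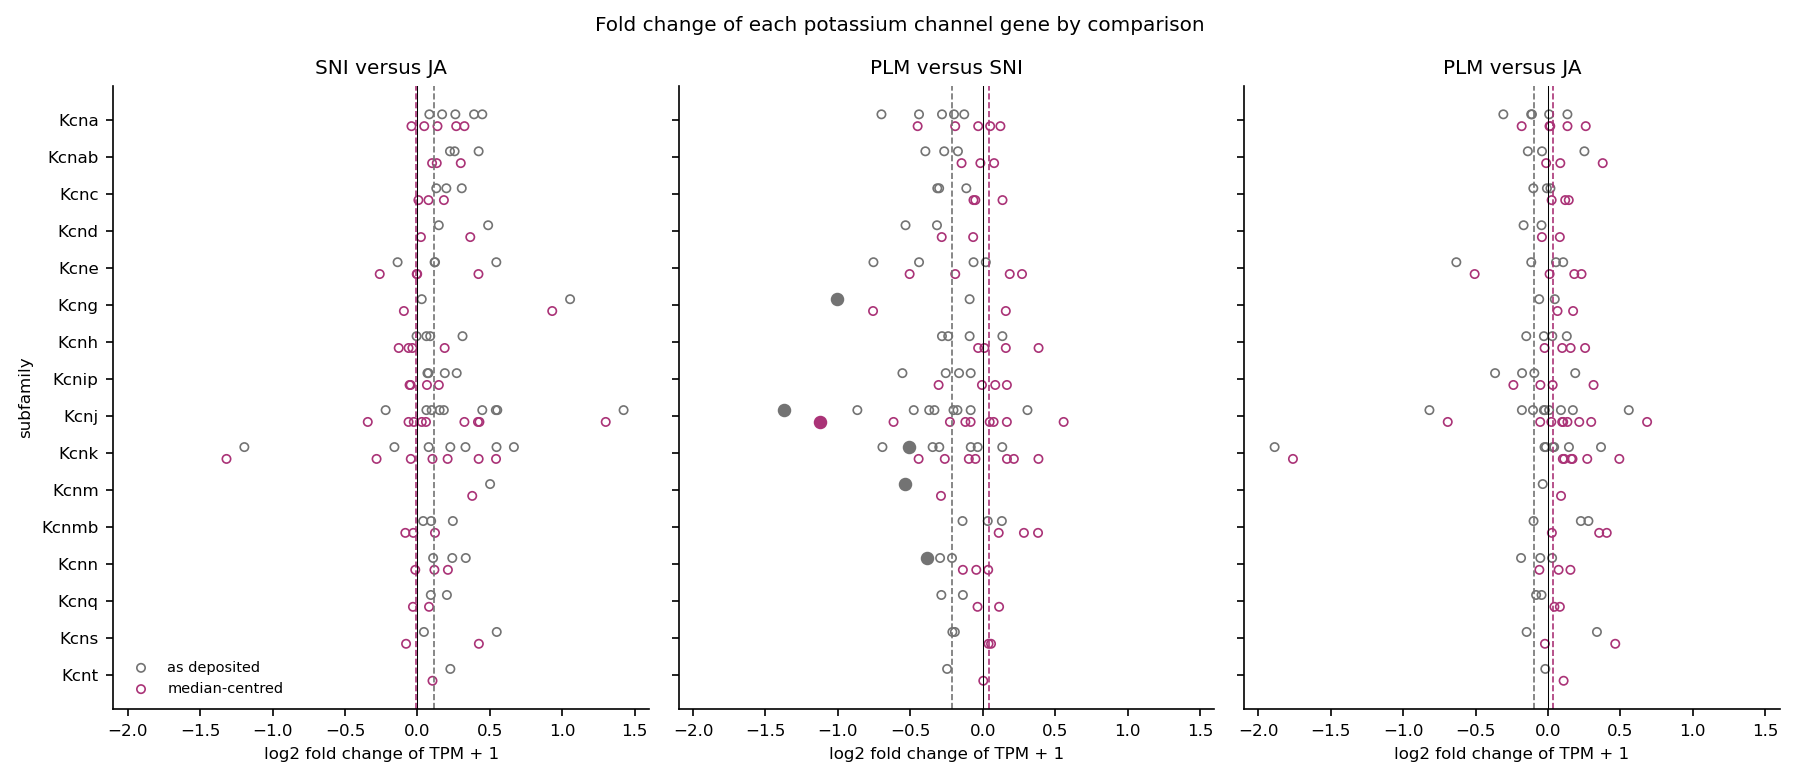
Log2 fold change of TPM + 1 for 55 of the 58 genes by subfamily in the 3 comparisons, as deposited (grey) and median-centred (purple). Filled points were called by limma at an adjusted p under 0.05 and dashed lines mark the median over all 15503 loci, which in PLM versus SNI moves from -0.21 to 0.04 with centring.

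Among voltage-gated genes, those nearest to a call were Kcnd1 and Kcna2. Kcnd1, a channel of the fast A-type current, had 8.06, 5.99 and 7.89 TPM in SNI and 5.34, 4.53 and 4.30 TPM in PLM. Its log2 fold change was -0.53 ± 0.14 (adjusted p = 0.0530 by limma) as deposited and -0.28 ± 0.15 (adjusted p = 0.385) after median-centring. Kcna2, an axonal channel beside the nodes of Ranvier, had 30.71, 23.60 and 25.08 TPM in SNI and 16.86, 19.46 and 21.30 TPM in PLM, with a change of -0.44 ± 0.13 (adjusted p = 0.0677) as deposited and -0.19 ± 0.10 (adjusted p = 0.404) after median-centring. Without SNI replicate 1 the Kcna2 change after median-centring was -0.10. The acid-sensitive leak channel Kcnk3 had 9.69 ± 1.12 TPM in SNI and 7.38 ± 0.197 TPM in PLM, and a change of -0.35 ± 0.10 (adjusted p = 0.0645). These 3 genes did not overlap between the groups as deposited and overlapped after median-centring.

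The comparison of SNI with JA asks how the injured cord differed from the sham-operated cord. No potassium channel gene changed by the test, though 53 of 58 had a higher mean of log2(TPM + 1) in SNI. As deposited, limma called 0 of 58 genes and 0 of 15503 loci, and the same held after median-centring. The smallest adjusted p among the 58 genes was 0.595 as deposited and 0.889 after median-centring. At an unadjusted p under 0.05 by limma, 11 genes were higher as deposited (19%, against 6.17% of all loci) and 0 lower (against 0.961%). After median-centring 4 were higher (6.90%, against 1.68%) and 0 lower (against 3.29%). Kcng4 alone passed the study's thresholds, as deposited (1.72%, against 0.387%), and 0 genes did after median-centring (against 0.232%). The share with a fold change above 0 was 91.4% as deposited, against 76.2% of all loci, and 63.8% after median-centring, against 47.9%.

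The smallest unadjusted p as deposited belonged to Kcnj3, a G-protein-gated inward rectifier that mediates slow inhibition. Kcnj3 had 4.79, 3.23 and 3.63 TPM in JA, 6.73, 5.27 and 6.21 TPM in SNI, and 4.14, 4.36 and 4.88 TPM in PLM. All SNI samples were above all JA samples on both scales. The log2 fold change in SNI against JA was 0.54 ± 0.16 (unadjusted p = 0.0137, adjusted p = 0.595 by limma) as deposited and 0.42 ± 0.13 (unadjusted p = 0.0190, adjusted p = 0.889) after median-centring. Kcng4 followed with a change of 1.05 ± 0.37 as deposited and 0.93 ± 0.33 after median-centring, and its JA replicate 1 (15.80 TPM) lay just under SNI replicate 2 (15.83 TPM), and the groups overlapped after median-centring.

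Of the other genes with small unadjusted p, Kcnma1 differed by 0.50 ± 0.18 on the deposited scale, Kcns3 (a modifier subunit) by 0.55 ± 0.20, Kcnk9 (an acid-sensitive leak channel) by 0.67 ± 0.25, Kcnip4 by 0.27 ± 0.10 and Kcnh1 (an ether-a-go-go channel) by 0.31 ± 0.12, none of which passed the test (adjusted p = 0.595 by limma for each). Kcns3 had 8.43, 4.76 and 6.32 TPM in JA and 11.29, 8.69 and 9.42 TPM in SNI, where the groups did not overlap. Kcnk9 had 23.46, 13.20 and 13.75 TPM in JA and 31.68, 21.31 and 27.06 TPM in SNI, where JA replicate 1 was above SNI replicate 2. Kcnj8 was lower in SNI by its mean, with a change of -0.22 ± 0.13 (adjusted p = 0.598 by limma) as deposited and -0.34 ± 0.14 (adjusted p = 0.889) after median-centring. The Kcnj8 value as deposited was -0.13 without JA replicate 2 and -0.13 without SNI replicate 1.

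In all, 9 of 58 genes had every SNI sample above every JA sample as deposited (15.5%, against 12.1% of all loci), namely Kcna4, Kcng4, Kcnh1, Kcnip4, Kcnj3, Kcnk1, Kcnma1, Kcnn2 and Kcns3, and 0 were below (against 1.66%). After median-centring 6 were above (10.3%, against 3.86%) and 4 below (6.90%, against 7.22%). Their median on the log2 scale was 0.21 as deposited, beside 0.12 over all loci, and 0.09 after median-centring, beside -0.01. Without JA replicate 1 the median as deposited was 0.32, and without SNI replicate 1 it was 0.12. After median-centring it was 0.0097 without SNI replicate 1, 0.16 without SNI replicate 2 and 0.15 without JA replicate 1. Summed neuron markers were 1256 to 2134 TPM in JA and 1983 to 2426 TPM in SNI. Of the markers of each cell type 0 passed the test in SNI against JA. The median change of the 8 neuron markers was 0.31 as deposited and 0.19 after median-centring. It was 0.91 and 0.79 for the 4 motor neuron markers tested, 0.58 and 0.45 for 4 Schwann cell markers, and 0.40 and 0.28 for 8 astrocyte markers. Markers of oligodendrocytes stood at -0.12 and -0.24, and those of endothelium and pericytes at -0.09 and -0.22. Their part in the potassium channel values was not tested.

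**Figure D5:**
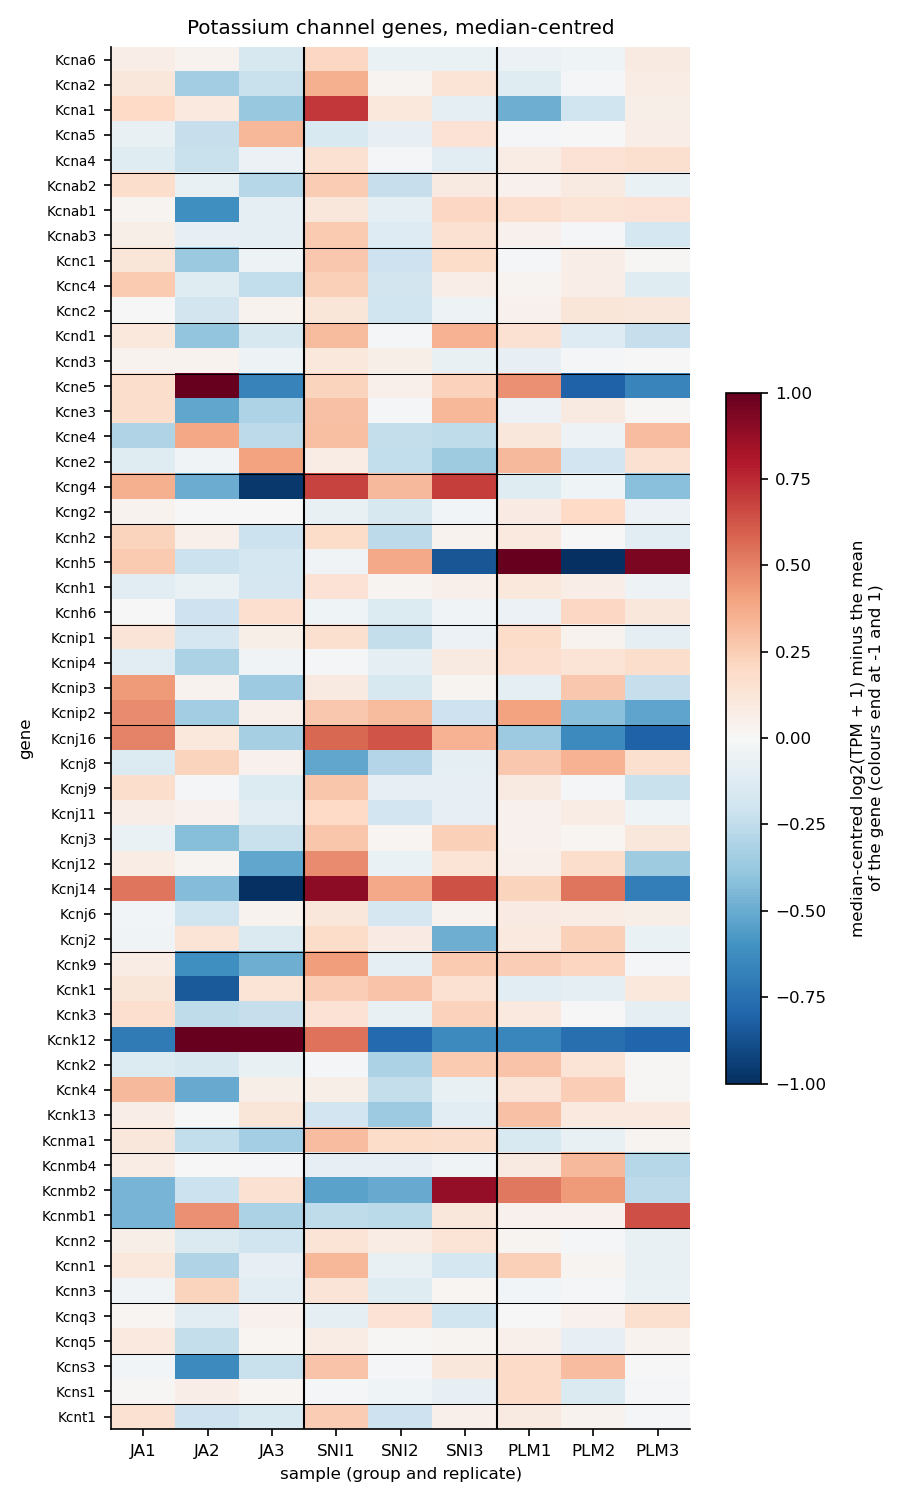
Median-centred log2(TPM + 1) of 55 of the 58 genes in the 9 samples, as the difference from the mean of each gene, with colours that end at -1 and 1. Kcnj16 is low in the 3 PLM samples, Kcng4 is high in the 3 SNI samples and in JA replicate 1, Kcnk12 is high in JA replicates 2 and 3, and Kcnh5 is uneven within PLM.

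The comparison of PLM with JA sets treated injured cord against sham-operated cord, and it shares its samples with the other comparisons. Here too no potassium channel gene passed the test. By limma 0 of 58 genes were called on either scale, while over all 15503 loci 2 were lower (0.0129%) and 1 higher (0.00645%) as deposited, and 2 lower and 0 higher after median-centring. At an unadjusted p under 0.05 by limma, 2 genes were lower (3.45%, against 10.7% of all loci) and 0 higher (against 1.23%) as deposited. After median-centring 2 were lower (3.45%, against 4.51%) and 5 higher (8.62%, against 5.37%). Kcnk12 alone passed the study's thresholds, on both scales (1.72%, against 0.574% as deposited and 0.303% after median-centring). The fold change was below 0 for 35 of 58 genes as deposited (60.3%, against 71.1%) and above 0 for 23 (39.7%, against 28.7%). After median-centring it was below 0 for 12 (20.7%, against 43.0%) and above 0 for 46 (79.3%, against 57.0%), so the larger share changed side with the scaling. Kcnj16 stood -0.82 ± 0.25 on the log2 scale from JA (adjusted p = 0.373 by limma) as deposited and -0.69 ± 0.23 (adjusted p = 0.497) after median-centring, with every PLM sample below every JA sample on both scales. For Kcnk12 the change was -1.89 ± 0.67 (adjusted p = 0.390) as deposited and -1.76 ± 0.70 (adjusted p = 0.499) after median-centring. The Kcnk12 call turned on 1 library: without JA replicate 1 it was called lower by limma on both scales, with a change of -2.71 (adjusted p = 0.00914) as deposited and -2.63 (adjusted p = 0.0045) after median-centring.

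Higher means in PLM than in JA were seen after median-centring for Kcnip4 (0.31 ± 0.09), Kcnk2, a mechanically gated leak channel (0.27 ± 0.10), Kcns3 (0.46 ± 0.17), Kcnk9 (0.49 ± 0.19) and Kcnj3 (0.30 ± 0.12), each with an adjusted p of 0.494 to 0.499 by limma. As deposited the same 5 differences were 0.19, 0.14, 0.34, 0.37 and 0.17. Kcnab1, a beta subunit of the Kcna channels, had 25.84, 15.06 and 21 TPM in JA and 23.36, 24.23 and 25.01 TPM in PLM, a change of 0.25 ± 0.19 as deposited and 0.38 ± 0.17 (adjusted p = 0.517 by limma) after median-centring. Of these 6 genes, leaving out JA replicate 2 lowered the difference as deposited to 0.10 for Kcnip4, 0.16 for Kcns3, 0.23 for Kcnk9, 0.07 for Kcnj3 and 0.05 for Kcnab1, and after median-centring to 0.29 for Kcns3 and 0.18 for Kcnab1. Leaving out JA replicate 1 raised it as deposited to 0.52 for Kcns3, 0.62 for Kcnk9, 0.30 for Kcnj3 and 0.42 for Kcnab1. The A-type channel Kcnd3 stood at -0.17 ± 0.12 as deposited, or -0.11 without JA replicate 1, and at -0.04 ± 0.09 after median-centring, or between -0.07, without JA replicate 3, and -0.02, without PLM replicate 1. Kcng4, Kcnma1, Kcnn2 and Kcnk1, which were lower in PLM than in SNI, differed from JA by 0.05, -0.04, -0.05 and 0.03 as deposited. The 95% intervals of these differences were -0.85 to 0.94, -0.49 to 0.42, -0.38 to 0.27 and -0.66 to 0.73, so a difference from sham was not excluded for any of them. The median over the 58 genes was -0.03 as deposited, beside -0.10 over all loci, and 0.10 after median-centring, beside 0.03, and its sign thus depended on the scaling. Without JA replicate 1 the median as deposited was 0.07.

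Potassium channels work with scaffolds, auxiliary proteins and pumps of other names. A list of 36 such partner genes was followed, of which 32 loci were tested. In PLM against SNI, 7 of the 32 were called lower by limma as deposited (21.9%, against 13.2% of all loci) and 3 after median-centring (9.38%, against 0.561%), with 0 higher on either scale, and in the other 2 comparisons 0 were called. The median change of the 32 loci was -0.26 as deposited and -0.01 after median-centring, beside -0.21 and 0.04 over all loci.

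Among the partners called lower on both scales was Atp1b2, a beta subunit of the sodium-potassium pump that is mainly astrocytic. It had 475, 347 and 190 TPM in JA, 515, 513 and 438 TPM in SNI, and 203, 181 and 156 TPM in PLM. All PLM samples lay below all SNI samples, and PLM overlapped with JA. The log2 fold change in PLM against SNI was -1.44 ± 0.11 (adjusted p = 0.00708 by limma) as deposited and -1.19 ± 0.13 (adjusted p = 0.0294) after median-centring, beside the lower astrocyte marker sums given for Kcnj16, whose part in it was not tested. Of the other beta subunits, Atp1b1 had 1065 ± 103 TPM in SNI and 906 ± 19.6 TPM in PLM (-0.23 as deposited, adjusted p = 0.1002) and Atp1b3 had 166 ± 12.4 and 158 ± 15.9 TPM (-0.08, adjusted p = 0.550).

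Among the partners of Kcna channels, Lgi1, a secreted protein of the synaptic complex, had 26.06, 23.72 and 22.81 TPM in SNI and 14.02, 14.36 and 15.35 TPM in PLM. Its change was -0.69 ± 0.07 (adjusted p = 0.0099 by limma) as deposited and -0.44 ± 0.06 (adjusted p = 0.0463) after median-centring. The other 7 tested partners of Kcna channels, adhesion proteins and scaffolds such as Cntn2 and Dlg4, were not called. Lrrc55, a gamma subunit of the Kcnma1 channel, had 2.05 ± 0.201 TPM in SNI and 1.28 ± 0.0208 TPM in PLM, a change of -0.41 (adjusted p = 0.0491) as deposited and -0.16 (adjusted p = 0.505) after median-centring. The potassium-chloride cotransporter Slc12a4 (-0.60, adjusted p = 0.0178) and the membrane anchor Ank2 (-0.56, adjusted p = 0.0351) were called as deposited alone. Slc12a5, the neuronal cotransporter that keeps chloride low, had 176 ± 32.4 TPM in SNI and 143 ± 3.31 TPM in PLM and was not called (-0.28, adjusted p = 0.176).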

How the data were processed

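RNA from 9 lumbar cord samples (3 JA, 3 SNI, 3 PLM, grouped by sample title) was analysed. The authors removed adaptors and low-quality reads, mapped with HISAT2 and computed expression with StringTie; the processing notes also name CASAVA and fastp 0.19.5. The deposited table holds TPM. The processing notes name a human build, GRCh38.p13, while the loci carry rat Ensembl identifiers. The rat build and strand setting are not given in the sources used here. Counts, and so depth, were not analysed here.

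Groups were compared in pairs on log2(TPM + 1), a scale that understates changes of low genes, with limma 3.58.1 in R 4.3.3 (variance trend, no covariate). Loci averaging 1 TPM or more across all 9 samples were fitted, 15503 in number, and p-values were adjusted over all of them by Benjamini-Hochberg. Errors are SD over 3 samples or SE of the fit. The labels say biological replicate and no more, so p-values measure the spread between these samples. The fit was run on simulated data to check that called changes kept their planted sign. Noise there was drawn independently for each gene, so shifts shared by a whole sample were not covered.

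Genes and lists were chosen with earlier results of these data known. Genes were named by a rule: in each comparison the 8 smallest p-values on each scale, the most abundant gene of each subfamily, and 1 gene on each side of the limit of 1 TPM. Other genes (Kcnh5, Kcnj14, Kcnj2, Kcnn4, those counted by sample position) were named after their values were seen. Some genes that the rule names are not reported here; they remain in the counts, medians and sums. Alternatives were a pseudocount of 0.1, other filters on low values, quantile normalization, TPM without mitochondrial genes, all 9 samples in 1 fit, a replicate block, and leaving out each sample.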

Additional observations from a re-analysis of the deposited data

How the results depend on the processing

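As deposited, 5 genes were lower in PLM than in SNI. The count was 1 after median-centring, 1 with quantile normalization, 2 for TPM without mitochondrial genes and 1 with all 9 samples in 1 fit. It was 3 with no filter on low values, 7 with at least 1 TPM in every sample fitted and 5 with a pseudocount of 0.1. With the mean of 1 TPM taken over the 6 samples fitted it was 6. When 1 sample was left out it ran from 1 to 7, and Kcnj16 was among the genes each time. Over the 13906 to 21973 loci tested, calls in either direction moved too, from 2080 as deposited to 100 after median-centring. They were 114 with quantile normalization, 268 without mitochondrial genes, 471 with all 9 samples in 1 fit and 112 to 1150 with 1 sample left out. With no filter they were 1258, with at least 1 TPM in every sample 2639, with the 6-sample mean 2148 and with the pseudocount 2092. Without SNI replicate 2 the 7 potassium channel genes included Kcnab3, Kcnc1, Kcnd1, Kcng4, Kcnj16 and Kcnk3. After median-centring 1 gene was lower, 0 with all 9 samples in 1 fit, and from 0 to 1 when 1 sample was left out. Over all loci these fits called 100, 0 and 0 to 74. In PLM against JA the count of lower genes was 0 to 1 on either scale when 1 sample was left out, the 1 being Kcnk12 without JA replicate 1. Those fits called 0 to 11 of all loci as deposited and 0 to 10 after median-centring. Kcnip4 in PLM against SNI changed sign, from -0.08 as deposited to 0.17 after median-centring, 0.14 with quantile normalization and 0.060 without mitochondrial genes. In SNI against JA 0 genes were called under every alternative, and over all loci 0 to 6. The cause of these shifts was not tested.

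The labels give replicate numbers shared by the groups. Of 9 same-numbered pairs of samples, 2 had deviations that correlated above 0.1, with r from -0.05 to 0.13. Among 18 differently numbered pairs 1 did, with r from -0.19 to 0.14. So few pairs cannot settle whether the numbers mark pairs. The labels do not say so, and the numbers were not taken as pairs in the main fits. With the number as a replicate block, the lower genes in PLM against SNI were 1 as deposited and 0 after median-centring, beside 56 and 0 calls over all loci.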

Other observations

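The 33 Kcn loci under 1 TPM were in no comparison. They include subunits named for other organs, such as Kcnj1 of kidney (mean of 0.0467 TPM over the 9 samples) and Kcnq1 of heart and epithelia (0.153 TPM), and the lymphocyte channel gene Kcna3 (0.376 TPM). Kcne1, Kcnk6 and Kcna10 were listed at 0 in every sample. Kcnf1, the only Kcnf gene, had 0.528 TPM, and Kcnv1, a modifier subunit, had 0.556 TPM.

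In RefSeq's order of protein-coding genes on GRCr8, 10 pairs of Kcn genes are neighbours, and levels within a pair can be far apart. Kcnip1 had a mean of 29.3 TPM beside 1.17 TPM for Kcnmb1, Kcnj6 had 4.21 TPM beside 0.212 TPM for Kcnj15, and Kcna2 had 21.7 TPM between Kcna3 at 0.376 TPM and Kcna10 at 0. Kcna5, Kcna1 and Kcna6 follow each other with 2.17, 12.1 and 47.5 TPM.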
